A study of Mus musculus with 9 samples.

Results

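The genes described here encode the core of the spliceosome, the RNA and protein machine that removes introns from precursor messenger RNA. Membership was set by name: 59 genes were listed, and every intron that the deposited intron table assigns to one of them was taken, whatever its values. The table held 260 introns of 56 of these genes, out of 22228 introns of 7016 genes in all. Sf3b5, Snrpd2 and Crnkl1 had no intron in it. Sf3b5 has no intron in its protein-coding transcript in the GENCODE M21 annotation, that of Snrpd2 has 2 and that of Crnkl1 has 13.

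The cells were v6.5, a mouse embryonic stem cell line, grown on gelatin in medium with serum and the ESGRO supplement. They were given KH-CB19, which inhibits Clk kinases, in the solvent DMSO, or only as much DMSO, and collected immediately (0 h) or 2 h later. Each of these 4 groups had 2 libraries of poly(A)-selected RNA, prepared with a stranded kit and described in the labels as independent biological replicates, while a ninth library of untreated v6.5 cells was not analysed here. The table gives 1 value per group, so no spread between the 2 replicates can be printed, and every adjusted p below is the authors' own. The submitters' processing notes name DESeq and no other statistical tool, and each adjusted p rests on 2 libraries per group.

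The spliceosome is built anew on each intron. The U1 snRNP, a particle of a small nuclear RNA and proteins, recognises the start of the intron, and Sf1, the U2af proteins and the U2 snRNP recognise the branch site and the intron's end. The tri-snRNP of U4, U6 and U5 then joins, the Prp19 complex stabilises the active form, and a series of RNA helicases drives each change of shape. Clk kinases phosphorylate SR proteins, which help the spliceosome to choose splice sites. Detained introns are introns that stay in otherwise spliced, polyadenylated transcripts that remain in the nucleus.

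For each intron at 0 h the table sets the observed reads against an expected number, both as authors' means over the libraries of a group, which are multiples of 0.5. At 2 h it gives the authors' normalised means in KH-CB19 and DMSO, their log2 ratio and an adjusted p, for 3454 introns that it classes as detained. Sums of the observed means at 0 h over the spliceosome introns were 19571.5 reads in DMSO (252 introns with a value) and 14269 in KH-CB19 (215 introns). At 2 h the 51 spliceosome introns with a value summed to 8288 in DMSO and 8859 in KH-CB19. RNA integrity numbers lay between 8.8 and 9.4. Of 11 pluripotency genes, all 11 had introns in the table (11883 observed reads in DMSO at 0 h). Of 11 genes of the germ layers and trophoblast none did, and of 8 fibroblast genes only Fn1 did (3265.5 reads).

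The deposited class of detained introns took in 51 of the 260 spliceosome introns (19.6%), against 15.5% of all introns. These 51 lay in 32 of the 56 genes (57.1%), against 34.6% of all genes in the table. A gene with more listed introns has more chances to hold a detained one. The 56 genes had 260 listed introns, and all 7016 genes had 22228. The part of this in the gene share was not tested. Of the 32 genes, 21 had 1 such intron, 4 had 2, 6 had 3 and Prpf39 had 4. They were spread over all 8 roles into which the genes were sorted: 6 of 20 introns in the U1 snRNP genes, 1 of 14 in the Sm ring genes, and 20 of 90 in the genes for the U2 snRNP and the branch and end sites. There were 16 of 76 in the tri-snRNP genes, 1 of 9 in the genes of the B complex and the minor spliceosome, and 4 of 34 in the Prp19 complex and its partners. The remodelling helicases and second-step factors had 2 of 13, and the export helicase Ddx39b had 1 of 4.

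To show where in the messages these introns sit, the exon ends that meet once the intron is removed are printed for 6 of them: those of Dhx38 and Prpf3 that rose after KH-CB19, that of Sart3 which came closest to doing so, and 3 introns of other roles that did not pass the test. Each run is 5′ to 3′ on the coding strand and holds 15 exon bases from either side, read from GENCODE M21 transcripts on GRCm38. The capitals mark the last 3 bases before the intron and the first base after it, the exonic part of the splice sites. The intron of Cdc5l that rose was not matched to an annotated intron and is not shown.
Dhx38 intron 28: ggcaaatctcgcCAGGagaatcgtcgtcgg
Prpf3 intron 16: acacgaagggagATGAtgatgaggaatctg
Sart3 intron 18: aaccctgattttAAGGtgttcagatacagt
Snrnp70 intron 9: cagagctgaaaaTGTGggaccctcacaatg
Snrnp48 intron 7: aaatcatacactGAGGtgatccgggatgtg
Snrpe intron 7: caagaaaacaacTGGGtcggatcatgctaa

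The introns of Dhx38, Sart3 and Snrnp48 follow an exon that ends in AG and precede one that starts with G. Prpf3 intron 16 lies between an exon that ends in TG and one that starts with A. Snrnp70 intron 9 follows an exon ending in GT, and Snrpe intron 7 follows one ending in GG. Intron numbers are those of the deposited table and differ from the transcript's own order. Dhx38 intron 28 is intron 25 of 26 in its matched transcript, after coding base 3480 of 3684. Prpf3 intron 16 is intron 14 of 15, after coding base 1843 of 2049. Both therefore sit near the end of the coding sequence, as does that of Sart3 (intron 16 of 18, after coding base 2370 of 2886).

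Across the genes, 232 of the 260 introns and 40 of the 51 detained ones matched an annotated intron by gene, chromosome, strand and length. Of the detained ones 11 (21.6%) did not match, against 8.13% of the others in these genes, and 18.9% against 13.4% over the whole table. Of the 40 matched introns, 32 (80.0%) belonged to a principal transcript, against 90.6% of the matched introns not classed as detained, and 87.7% against 93.2% over the whole table. Transcripts annotated as targets of nonsense-mediated decay, which destroys messages with an early stop codon, were the best match for 5 of the 40 (12.5%): Prpf39 introns 9 and 11, Sf3b1 introns 4 and 5 and Dhx15 intron 14. They were the best match for 9 of the 192 others (4.69%), against 2.71% of detained and 1.19% of other introns over the whole table. With the coding sequence cut into 3 equal parts, detained introns between coding exons of principal transcripts lay in the last part in 19 of 31 cases (61.3%), against 59 of 172 (34.3%) for the others in these genes. Over the whole table the shares were 54.1% and 34.7%, so the position toward the end was shared with detained introns of other genes. The next exon started with G for 62.5% of detained spliceosome introns and 45.3% of the others, against 45.5% and 48.4% in the whole table. Of the 31 introns between coding exons, 14 (45.2%) fell after the second base of a codon, against 19.8% of the others and 24.6% of detained introns of all genes. These shares rest on few introns and were not tested.

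The lengths of the 51 detained introns ran from 104 to 11396 bp with a median of 1394 bp, against 1256 bp for the other spliceosome introns. Of the 51, 6 (11.8%) were 200 bp or less, against 1 of 209. Over the whole table, 7.67% of detained and 3.74% of other introns were as short. The 6 were Prpf39 introns 4, 9 and 11, Prpf4 intron 14, Dhx16 intron 18 and Sf3b3 intron 26.

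In DMSO at 0 h, reads in the spliceosome introns were unevenly spread within the genes. In the authors' deposited table, 65 of 252 introns (25.8%) had more reads than expected at an adjusted p below 0.05, against 28.2% of all introns, and 45 (17.9%) had fewer, against 10.9%. The median ratio of observed to expected reads was 1.28-fold, against 1.44-fold over all introns. All 51 detained introns were among the 65, with a median of 3.47-fold (3.56-fold for detained introns of all genes). Because that class and these ratios come from the same reads, this count describes the class and is no independent finding. The introns not classed as detained had a median of 1.03-fold, against 1.23-fold in the whole table, and held all 45 of those below expectation.

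**Figure D1:**
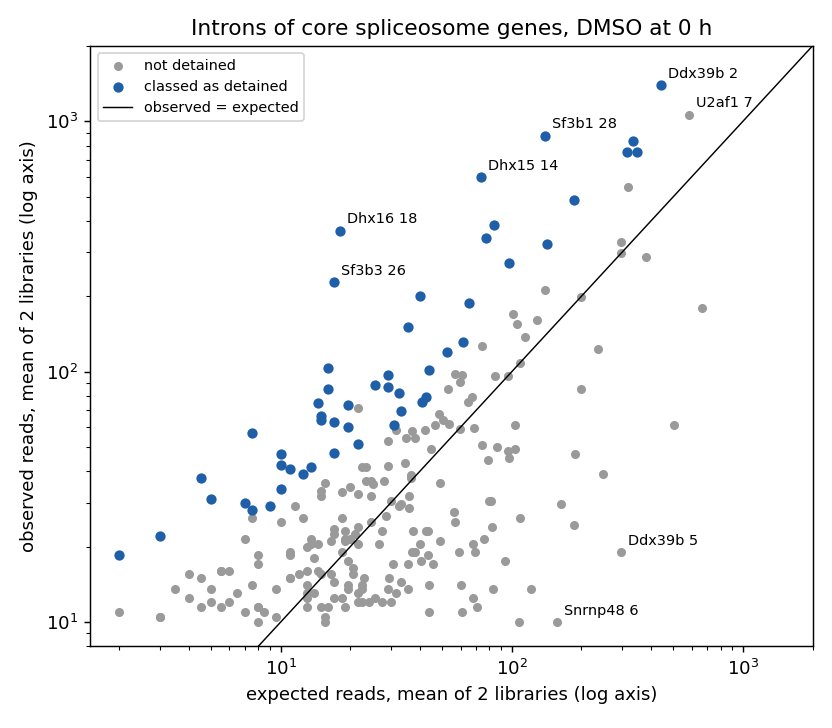
Observed against expected reads per spliceosome intron in DMSO at 0 h (authors' means, both axes logarithmic), with detained introns marked. Detained introns, such as Dhx16 intron 18 (366 observed, 18 expected), lie above the line of equality, while Ddx39b introns 5 and 11 lie far below it.

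Among the deviations above expectation, Dhx16 intron 18 had the highest ratio, 366 reads where 18 were expected (20.3-fold). This intron of 159 bp, at chr17:36026225-36026383 (mm9), belongs to the gene of a helicase that acts before the first step of splicing. Sf3b3 intron 26, of 190 bp, had 228.5 reads against 17 expected (13.4-fold). Dhx15 intron 14, in the gene of the helicase that takes apart spent spliceosomes, had 596.5 against 73.5. Ddx46 introns 15 and 25 had 57 reads against 7.5 and 103.5 against 16. Ddx46 is a helicase needed for U2 snRNP to join the intron. In the KH-CB19 group at 0 h these 5 introns were also above expectation, with 284 reads against 14 for Dhx16 intron 18, 148.5 against 11.5 for Sf3b3 intron 26 and 372.5 against 44.5 for Dhx15 intron 14.

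Below expectation, the lowest ratios stood in genes that also held an intron above it. The expected numbers followed a total per gene shared by a rule of length, as described below. An intron with many reads may raise that total and so place its neighbours below expectation by construction. The pairing is therefore no independent finding, and how much of it arises in this way was not tested. Snrnp48, which encodes a protein of the U11/U12 particle of the minor spliceosome, had 10 reads in intron 6 where 157 were expected (15.7-fold fewer). Its intron 7, which follows, had 757 where 316.5 were expected. Ddx39b, an RNA helicase of splicing and messenger RNA export, had 19 reads against 297 in intron 5 and 61.5 against 502.5 in intron 11, but 1393.5 against 442 in intron 2, the most reads of any intron of these genes. Sf3b1, the largest subunit of the SF3b complex that binds the branch site, had 10 reads against 107.5 in intron 13. Its introns 4, 5 and 28 had 385, 69.5 and 877.5 reads against 84, 33 and 139.5. Bcas2, a core protein of the Prp19 complex, had 13.5 reads against 120.5 in intron 2 and 324.5 against 141.5 in intron 7.

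**Figure D2:**
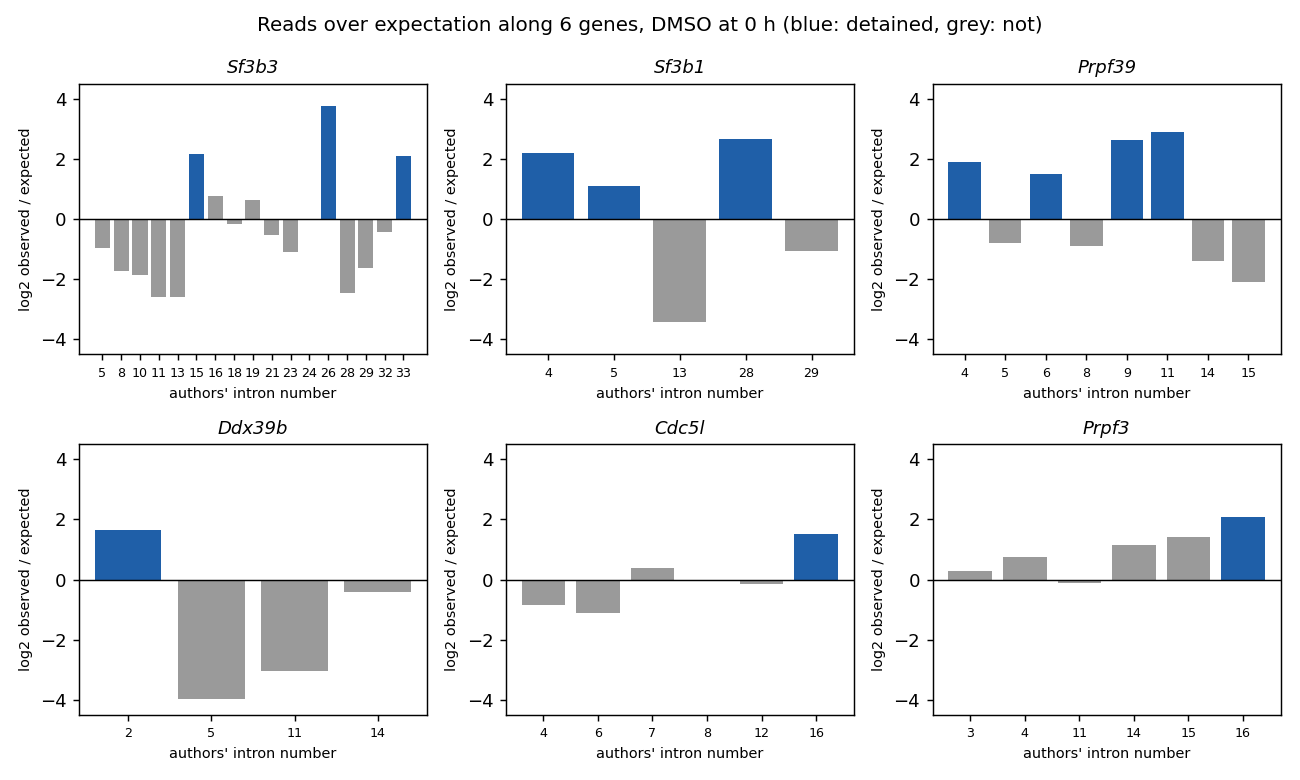
Log2 ratio of observed to expected reads in DMSO at 0 h for each listed intron of 6 spliceosome genes, with detained introns in blue and the others in grey. Introns 24 of Sf3b3 and 8 of Cdc5l have a ratio at or close to 1 and so no visible bar. Detained introns stand above 0, such as Sf3b3 intron 26 (228.5 reads observed, 17 expected), and most of the others in Sf3b3, Sf3b1, Prpf39 and Ddx39b stand below it.

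The expected number followed a simple rule of length. For 229 of 246 spliceosome introns (93.1%) in genes with at least 2 values, it lay within 1 read of the gene's expected total shared by the square root of length minus 100 bp. A share by length minus 100 bp came as close for 31 (12.6%). With the gene's expected total shared by length minus 100 bp, all 50 detained introns of genes with another listed intron were still above expectation. The median was 4.18-fold, against 3.44-fold by the authors' numbers. This share is very small for introns little over 100 bp: Prpf39 intron 11, of 104 bp, had 22 reads against 0.109. The count of 50 reuses the reads that the class comes from, so it is no independent finding either. It was not made for detained introns of other genes. In 10 of the 56 genes the observed and expected sums were equal within 0.5 reads per intron, so that the ratio of Snrpf, with 1 listed intron of 199.5 reads, is 1. The observed sum was the higher one in the other 46, among them Dhx38, also with 1 listed intron (75 against 14.5). Over the whole table the sums were equal in this sense in 1132 of 6935 genes (16.3%), and the observed one was lower in 55. The sums cover listed introns only. Introns could pass the threshold upward without being classed as detained, as 14 did. The one with most reads was U2af1 intron 7, with 1064.5 reads against 582. U2af1 binds the end of the intron.

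Compared per kb with the other listed introns of the same gene, 45 of 47 detained introns were denser in reads than the median of those not classed as detained, and 38 were denser than every one of them. In some genes, such as Snrpe and Xab2, that was only 1 other intron. The class and these densities come from the same reads, so the counts describe the class and are no independent finding. They were not made for detained introns of other genes, so they cannot be called particular to spliceosome genes. The median ratio was 4.81 and the range ran from 0.470 to 49.3. Sf3b3 intron 26 had 1203 reads per kb against a median of 24.4 over 14 other introns. Ddx39b intron 2 had 999.6 against 33.6 over 3 others. Sf3b1 introns 4, 5 and 28 had 265, 227 and 227 against 13.6 over 2 others. The 2 exceptions were introns 16 and 36 of Snrnp200, the gene of the helicase that unwinds U4 from U6, at 18.5 and 22.9 reads per kb against 39.3. That median rests on 3 listed introns with 10.5, 16 and 10.5 reads. The lowest observed mean of any listed spliceosome intron in DMSO was 10 reads, so introns with fewer reads are missing from these comparisons.

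The shares in the KH-CB19 group at 0 h were close to those in DMSO. In the authors' deposited table, 58 of 215 introns (27.0%) were above expectation, against 27.6% of all introns, and 37 (17.2%) were below, against 8.93%. Of the 51 detained introns 47 were above it, in both groups at 0 h, with a median of 3.41-fold in KH-CB19. The 4 that missed the threshold in KH-CB19 were Prpf39 intron 4 (13.5 reads against 5.5), Snrpa1 intron 7 (22.5 against 7.5), Sf3b1 intron 5 (43.5 against 22.5) and Sf3a3 intron 20 (29.5 against 17).

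**Figure D3:**
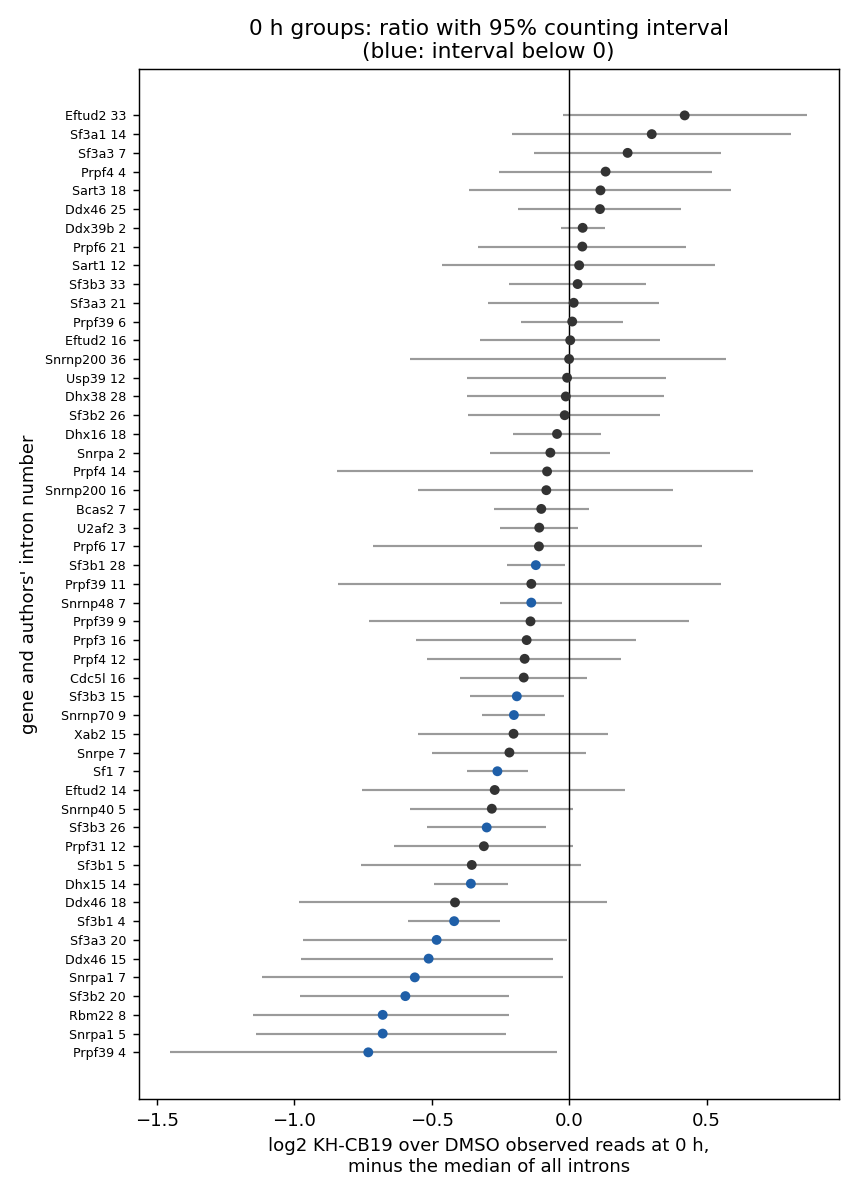
Log2 ratio of observed reads, KH-CB19 over DMSO at 0 h, for detained spliceosome introns, centred on the median of all introns, with 95% exact binomial intervals that cover counting error only. None of the 51 intervals lies wholly above 0, and 15 lie wholly below it.

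Observed reads were fewer in KH-CB19 than in DMSO at 0 h over the whole table, with a median ratio of 0.8, so the ratios were centred on that median. The centred log2 ratio had a median of -0.06 over 207 spliceosome introns. Over the 51 detained ones it was -0.14, against -0.04 over all detained introns. The 95% exact binomial interval lay below 0 for 15 of the 51 (29.4%), against 12.2% of detained introns of all genes, and above 0 for none, against 8.83%. These intervals hold counting error alone, without the spread between libraries, so they are no test of the treatment. All 51 were above expectation in DMSO but only 47 in KH-CB19, so a class tied to high DMSO reads may have a lower ratio. For detained introns of all genes the counts were 3408 of 3453 and 3207 of 3423. The part of this selection in the ratios was not tested. The lowest were Prpf39 intron 4 (-0.73, from 28 to 13.5 reads), Snrpa1 intron 5 (-0.68, from 63 to 31.5), Rbm22 intron 8 (-0.68, from 60 to 30) and Sf3b2 intron 20 (-0.60, from 85 to 45). The highest was Eftud2 intron 33 (0.42, from 42.5 to 45.5). The part of the 0 h ratios in the 2 h results was not tested.

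After 2 h, 3 detained spliceosome introns rose with KH-CB19 and none fell. In the authors' deposited table, 3 of 51 (5.88%) passed an adjusted p of 0.05 upward, against 5.47% of the 3454 introns tested, and 0 of 51 downward, against 4.17%. The upward share was near that of all introns. At an adjusted p below 0.01, Dhx38 and Cdc5l passed and Prpf3 did not. Direction was taken from the means: the table also carries a response word, which is Less for all 189 introns past 0.05 with the higher mean in KH-CB19 and More for all 144 with the lower one. No source used here says what the words refer to. The median log2 ratio of the 51 was 0.04, against 0.00 over all, with quartiles of -0.16 and 0.46 against -0.35 and 0.34. Ratios were above 1 for 29 of the 51 (56.9%), against 49.9% of all. They lay within 1.5-fold of 1 for 40 introns (78.4%), against 72.5% of all. Beyond 1.5-fold, 10 were higher (19.6%, against 13.6%) and 1, Prpf39 intron 4, was lower (1.96%, against 14.0%). The table holds no 2 h values for the introns that are not detained or for the exons, so more transcript of a gene and a larger share of it with the intron cannot be told apart, nor can a change in some cells and a smaller one in all. Unadjusted p-values were not used here.

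**Figure D4:**
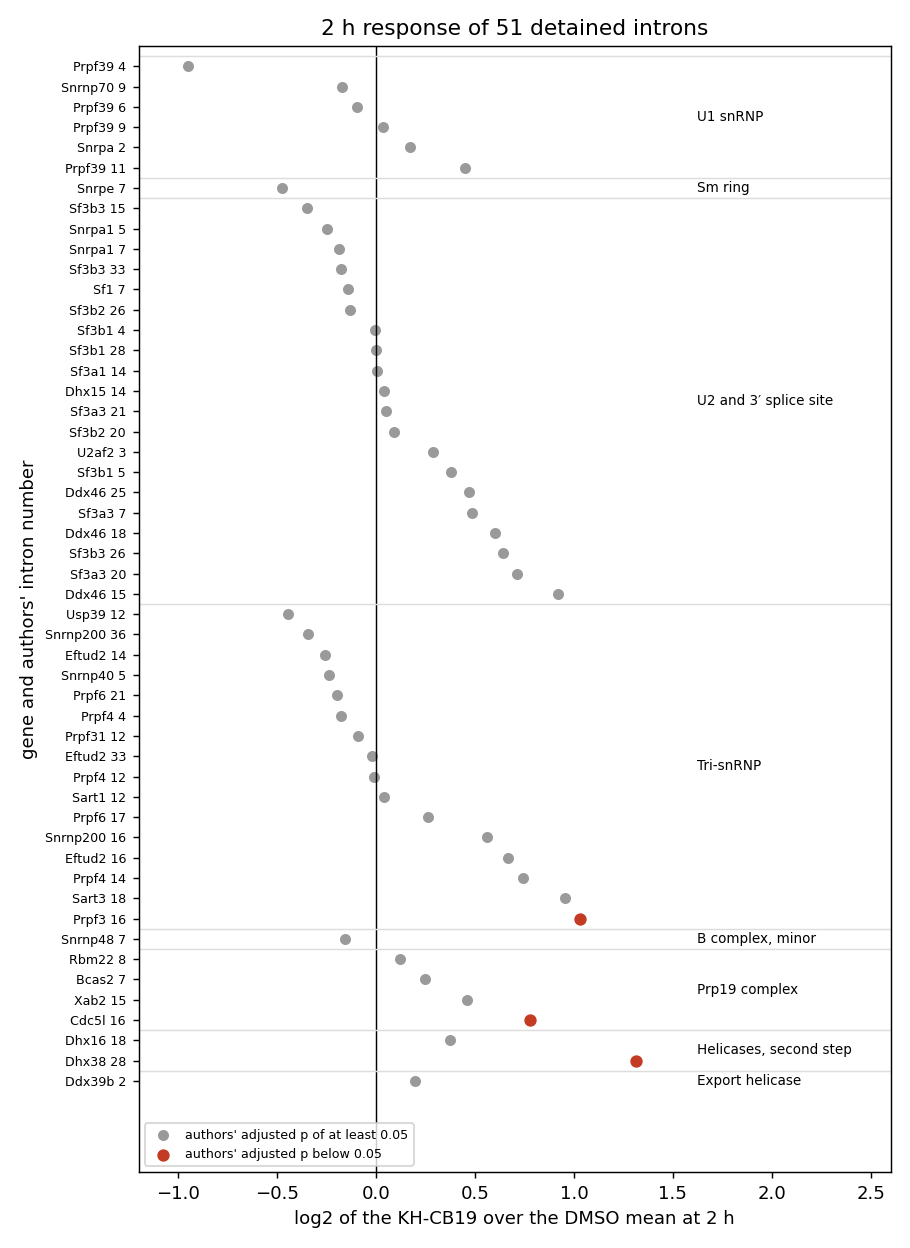
Log2 ratio of the authors' normalised means, KH-CB19 over DMSO at 2 h, for the 51 detained spliceosome introns ordered within their roles, with those past an adjusted p of 0.05 marked. The 3 marked introns belong to Dhx38, Prpf3 and Cdc5l, and the lowest ratio is that of Prpf39 intron 4.

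In the U1 snRNP genes, none of 6 detained introns passed the test, and their median log2 ratio was -0.03. Snrnp70, which binds the U1 RNA directly, had authors' means of 595 in DMSO and 529 in KH-CB19 at 2 h in intron 9. Snrpa, a U1 protein that binds a loop of the U1 RNA, had 207 and 233 in intron 2. Both differences were small, with adjusted p of 0.677 and 0.739 in the authors' deposited table.

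Prpf39, a U1-associated protein, had the most detained introns, and they did not move together. Intron 4 had authors' means of 19.8 in DMSO and 10.3 in KH-CB19 at 2 h, the lowest ratio of all 51 (log2 -0.95, adjusted p 0.657). Intron 6 had 243 and 228, intron 9 had 29.6 and 30.3, and intron 11 had 18.8 and 25.7. None of the 4 passed the threshold, and the 3 shorter ones, of 128, 113 and 104 bp, rest on few reads. Introns 9 and 11 are the pair matched to a transcript annotated as a target of nonsense-mediated decay.

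The Sm ring is the set of 7 proteins that encircles most spliceosomal RNAs, and among the 6 of its genes in the table only Snrpe had a detained intron. Its intron 7 had authors' means of 92.1 in DMSO and 66.2 in KH-CB19 at 2 h, a log2 ratio of -0.48 that did not pass the test (adjusted p 0.374). At 0 h it had had 131.5 and 90.5 observed reads, a centred log2 ratio of -0.22 with a 95% counting interval from -0.50 to 0.06.

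In the genes for U2 snRNP and recognition of the branch and end sites, none of 20 detained introns passed the test. Of the 20, 12 had a ratio above 1, against 49.9% of all detained introns. The introns with most reads hardly differed: Sf3b1 intron 28 had authors' means of 718.1 in DMSO and 717.9 in KH-CB19, and Sf3b1 intron 4 had 306.2 and 305.4. Sf1, the branch site binding protein, had 635 and 575 in intron 7. U2af2, which binds the pyrimidine tract before the intron's end, had 270 and 330 in intron 3. Dhx15 intron 14, at 474 and 486, was also nearly level.

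The larger ratios in these genes were upward. Sf3b3 intron 26 had 117 and 183 (log2 0.64), with an adjusted p of 0.0676 in the authors' deposited table. The other detained introns of Sf3b3 went the other way, with 307 and 241 in intron 15 and 149 and 131 in intron 33. Ddx46 intron 15 had 36.7 and 69.5 (log2 0.92, adjusted p 0.226). Ddx46 introns 18 and 25 had 31.8 and 48.2, and 77.4 and 107, so all 3 detained introns of Ddx46 were higher in KH-CB19 without passing the test.

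Of the 16 detained introns in tri-snRNP genes, 1 rose. Prpf3, a protein of the U4/U6 particle, had authors' means of 39.0 in DMSO and 79.6 in KH-CB19 at 2 h in intron 16, at chr3:95636546-95637675 (mm9, 1130 bp, between coding exons). That is 2.04-fold higher, with a log2 ratio of 1.03 and an adjusted p of 0.0192 in the authors' deposited table. At 0 h the same intron had 64 reads in DMSO and 46 in KH-CB19, a centred log2 ratio of -0.15 with a 95% counting interval from -0.56 to 0.24.

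Sart3, which helps U4 and U6 to pair again after each round, came next in the tri-snRNP group. Its intron 18 had 35.0 in DMSO and 67.8 in KH-CB19 at 2 h (1.94-fold, log2 0.95), with an adjusted p of 0.0524 in the authors' deposited table, just outside the threshold. Eftud2, the GTPase of the U5 particle, had 56.0 and 88.8 in intron 16, but 32.0 and 26.7 in intron 14 and 30.7 and 30.3 in intron 33. Usp39, needed for the tri-snRNP to join, had 65.1 and 47.8 in intron 12, the lowest ratio of the group. The median log2 ratio of the 16 was -0.02. The KH-CB19 mean was above the DMSO mean for 7 of the 16, against 49.9% of all detained introns.

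The single detained intron of the B complex and minor spliceosome genes, Snrnp48 intron 7, had authors' means of 674 in DMSO and 605 in KH-CB19 at 2 h (adjusted p 0.691).

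In the genes of the Prp19 complex and its partners, all 4 detained introns had a ratio above 1 and 1 rose. Of all detained introns 49.9% had a ratio above 1, and 4 introns are too few to show a direction. Cdc5l, a core protein of the complex, had authors' means of 153 in DMSO and 262 in KH-CB19 at 2 h in intron 16. The ratio was 1.72-fold (log2 0.78, adjusted p 0.00784 in the authors' deposited table). This intron, at chr17:45530147-45541542 (mm9), was the longest detained intron of these genes at 11396 bp. Its observed reads at 0 h were 188.5 in DMSO and 134.5 in KH-CB19, a centred log2 ratio of -0.17 with a 95% counting interval from -0.40 to 0.06. Xab2 intron 15 had 50.6 and 69.5 at 2 h, Bcas2 intron 7 had 236 and 281, and Rbm22 intron 8 had 41.7 and 45.3.

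Among the remodelling helicases and second-step factors, Dhx38 had the strongest response of all 51 introns. Dhx38 is the helicase that remodels the spliceosome between the 2 steps of splicing. Its intron 28, at chr8:112073796-112075462 (mm9, 1667 bp, between coding exons), had authors' means of 49.9 in DMSO and 124 in KH-CB19 at 2 h. The ratio was 2.48-fold (log2 1.31, adjusted p 0.000216 in the authors' deposited table). At 0 h it had 75 and 59.5 observed reads, a centred log2 ratio of -0.01 with a 95% counting interval from -0.37 to 0.34. It was the only intron of Dhx38 in the table. Dhx16 intron 18, which had the highest ratio to expectation at 0 h, had 278 and 361 at 2 h (adjusted p 0.262).

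Ddx39b intron 2, the intron with the highest means at 2 h, had 1269 in DMSO and 1453 in KH-CB19 (log2 0.20, adjusted p 0.601 in the authors' deposited table).

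For the 3 introns that rose, the counting interval of the 0 h ratio therefore held 0. Set against 0 h within each treatment and centred on the median of all detained introns, Dhx38 intron 28 had log2 ratios of 2 h over 0 h of -0.27 in DMSO and 1.04 in KH-CB19. For Prpf3 intron 16 they were -0.40 and 0.77, and for Cdc5l intron 16 they were 0.01 and 0.95. The 2 h values are normalised means and the 0 h values are observed reads, so these ratios have meaning only relative to the other introns. In DMSO the values of the 3 introns moved with or below the typical detained intron, while in KH-CB19 they were higher. The 3 introns were chosen for their higher KH-CB19 mean at 2 h, and these ratios reuse the same means. The gap between the treatments therefore follows largely from that choice and is no further evidence.

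**Figure D5:**
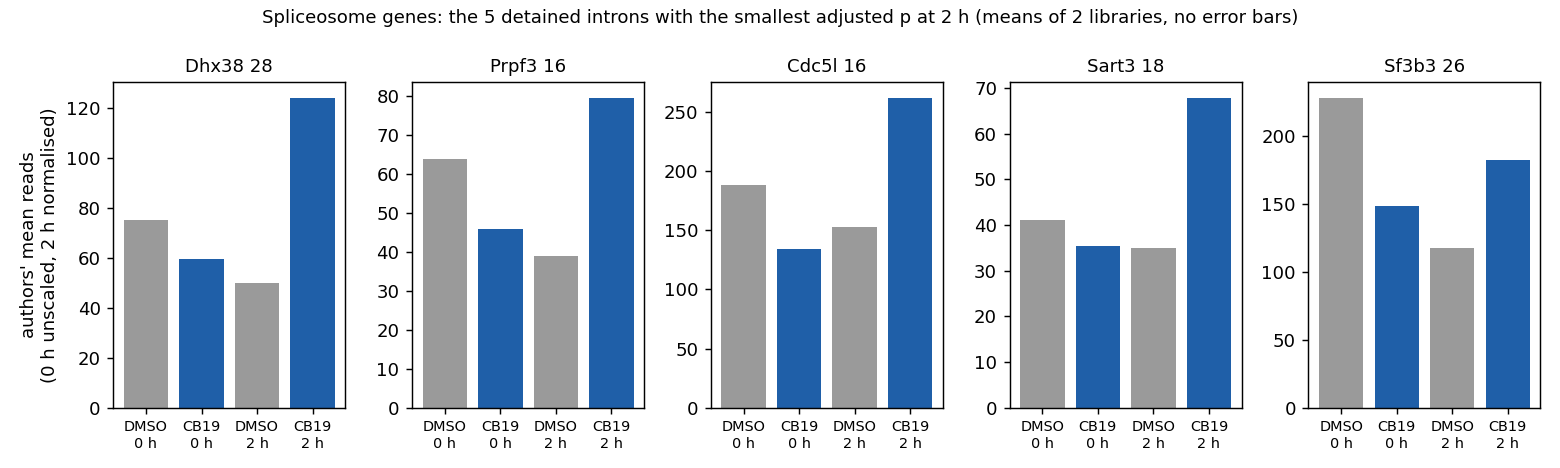
Authors' means of the 5 detained spliceosome introns with the smallest adjusted p at 2 h, as observed reads at 0 h and normalised means at 2 h in DMSO and KH-CB19. For Dhx38 intron 28 the means are 75 and 59.5 at 0 h and 49.9 and 124 at 2 h, and the KH-CB19 mean of all 5 is the higher one at 2 h; at 0 h it is the lower one, where observed reads in KH-CB19 were 0.8 times those in DMSO at the median of all introns.

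The rest of the splicing machinery was taken from a list of 75 other genes of the spliceosome and its assembly, of which 59 were in the table with 196 introns. There were 31 detained introns (15.8% of the 196, against 15.5% of all introns) in 24 of these genes. In DMSO at 0 h, 49 of 188 introns (26.1%) were above expectation and 17 (9.04%) below, near the 28.2% and 10.9% of all introns. At 2 h the adjusted p in the authors' deposited table was below 0.05 for 0 of the 31 in either direction, against 5.47% upward and 4.17% downward of all introns tested, with a median log2 ratio of 0.14.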

How the data were processed

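RNA from 8 libraries in 4 groups was measured by stranded, paired-end poly(A) sequencing. Per the submitters' processing notes, the authors worked on mm9 with DESeq, Cufflinks 2.1.1, TopHat2 2.0.9, Bowtie 1.0.0, bedtools 2.17.0 and SAMtools 0.1.19. Which tool made which value is not given in the sources used here. Deposited for 0 h were the authors' mean observed and expected read counts, with words in place of low values. Deposited for 2 h were the authors' normalised means (a signal), log2 ratios and adjusted p-values. How expected counts were made is not given in the sources used here.

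No test was added: calls use the authors' adjusted p below 0.05, and counts and medians stand beside those over all introns. The file holds no counts per library, so the edgeR fit foreseen for that case could not be made. Ratios at 0 h, densities and intervals were computed with Python 3.11, pandas 2.3.3, NumPy 2.4.6 and SciPy 1.17.1. The code was tested on simulated data. Introns were matched to GENCODE M21 (GRCm38) by symbol, chromosome, strand and length, without converting coordinates. In all 48 genes with at least 2 matches the shift between builds was constant. With no mm9 genome in use here, exon junctions stand in for the splice sites.

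Members and lists were chosen with earlier results of these data known. Named were: every intron past the threshold at 2 h; per role the 2 with the largest log2 ratio in size and a mean of at least 50; the 5 highest and 5 lowest ratios at 0 h past the threshold with an observed or expected mean of at least 50; and the gene with most detained introns. Other introns were named after their values were seen.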

Additional observations from a re-analysis of the deposited data

How the results depend on the processing

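At an adjusted p below 0.1, 5 spliceosome introns were higher at 2 h instead of 3, with Sart3 intron 18 and Sf3b3 intron 26 added, and below 0.01 there were 2, without Prpf3 intron 16. With observed means of at least 50 reads, 6 introns instead of 45 were below expectation in DMSO at 0 h. In KH-CB19, 36 instead of 58 were above and 4 instead of 37 below, and 24 were below at an adjusted p below 0.01. Shares of all introns under these settings were not computed here, so the counts show only how the calls vary with the setting. A minimum on observed reads removes introns below expectation by construction. No direction reversed under the other thresholds, pseudocounts of 1 and 10, medians over genes or other centring. Nor did any with expected reads shared by length minus 100 bp, a setting chosen after seeing the data. No paired analysis was possible because the deposited values are group means without replicate numbers, and leaving out each replicate was not run for the same reason. Introns with few reads, such as those of Prpf39 and Prpf4 of under 130 bp, are limited by depth.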
